A study of Mus musculus with 21 samples.

Results

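The genes described here are 8 mouse genes best known from lymphocytes: the transcription factor genes Bcl11b, Pax5, Ebf1, Ikzf1 and Ikzf3 and the T-cell surface protein genes Cd3e, Cd4 and Cd28. DNA methylation at these genes was measured in synovial fibroblasts, the connective tissue cells that line the joint, and not in lymphocytes. The genes were chosen by name, and every region that the authors' tables assign to one of them was taken. This gave 30 regions of 500 to 950 bp out of 49307 listed regions, and all 8 genes had at least 1 region.

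Synovial fibroblasts were grown from 2 kinds of mice on a mixed CBA x C57BL/6J background: the Tg197 line, whose human TNF transgene leads to chronic arthritis, and wild-type (WT) animals. Tg197 and WT cells were taken from mice aged 3, 8 and 11 weeks, and a further group was WT cells from 8-week-old mice that had been treated with TNF, the inflammatory cytokine; no dose or duration was found in the labels. There were 3 libraries in each of 7 groups, 21 in all, and the cells were grown in culture to passages 4 to 5. The labels do not say whether the libraries of a group came from separate animals, so p-values measure the spread between libraries, which may be technical. Capture of DNA does not measure expression, so the fibroblast label could not be checked against marker genes here, and cells of another type in a culture cannot be told apart from a change in the fibroblasts themselves.

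Lymphocytes are made from shared progenitors in steps that transcription factors control. Ikzf1 (Ikaros) and Ikzf3 (Aiolos) are zinc finger proteins of the lymphoid lineage, Ebf1 and Pax5 set up and hold B-cell identity, and Bcl11b commits progenitors to the T-cell lineage. Cd3e is a signalling chain of the T-cell receptor, Cd4 is the co-receptor that binds class II major histocompatibility molecules, and Cd28 gives the costimulatory signal. Ebf1 is also used outside the blood, in mesenchymal and fat precursor cells. Methyl groups on cytosines of CpG pairs tend to accompany silence at promoters, while the bodies of transcribed genes are often methylated.

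In MethylCap-seq, methylated DNA fragments are bound by a methyl-CpG-binding protein and then sequenced, so reads at a region depend on how methylated it is and on how many CpG pairs it has. The sequences below show how far these genes differ in that number. They are the 250 bases upstream of the annotated start, from RefSeq on build GRCm38.p6, minus strand for Cd3e and Bcl11b and plus strand for Ikzf1, written 5′ to 3′ with each CpG in capitals. Cd3e is shown because its listed regions lie just after its start. Ikzf1 and Bcl11b were added as a contrast after their values were seen.
Cd3e: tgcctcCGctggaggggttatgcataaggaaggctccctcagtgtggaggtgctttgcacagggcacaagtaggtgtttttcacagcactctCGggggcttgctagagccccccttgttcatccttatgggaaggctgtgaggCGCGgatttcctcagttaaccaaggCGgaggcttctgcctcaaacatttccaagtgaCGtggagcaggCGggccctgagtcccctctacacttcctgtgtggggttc
Ikzf1: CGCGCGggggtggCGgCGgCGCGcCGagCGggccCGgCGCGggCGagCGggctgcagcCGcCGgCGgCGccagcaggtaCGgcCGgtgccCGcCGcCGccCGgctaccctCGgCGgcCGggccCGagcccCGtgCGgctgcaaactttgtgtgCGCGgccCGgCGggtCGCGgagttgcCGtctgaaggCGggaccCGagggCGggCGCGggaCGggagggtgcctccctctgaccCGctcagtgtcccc
Bcl11b: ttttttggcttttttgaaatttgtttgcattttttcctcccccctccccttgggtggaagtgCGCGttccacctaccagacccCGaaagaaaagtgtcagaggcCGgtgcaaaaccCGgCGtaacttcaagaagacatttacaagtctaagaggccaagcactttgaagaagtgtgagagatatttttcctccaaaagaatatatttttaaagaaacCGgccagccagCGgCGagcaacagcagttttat
The Cd3e window holds 7 CpG pairs and 53.7% of the 32851 mouse promoter windows in the RefSeq table hold fewer. The Bcl11b window holds 9 and the Ikzf1 window printed here 44, and 99.5% of promoter windows hold fewer than the latter. Another annotated start of Ikzf1 has a window with 1 CpG, and 7.87% of windows hold fewer than it. The median over all windows was 6 (quartiles 2 and 16). Of the 8 genes 5 matched the table. None of the 30 listed regions was upstream of its gene's start.

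Of the 30 regions, 27 were classed by the authors as gene body and 3 as promoter, the latter meaning within 3 kb of the start. Gene bodies made up 87.9% of all listed regions that have a gene, so the members' positions are like those of the rest. All coordinates of regions are on build mm9. Values are the authors' normalized reads, which are reads divided by a size factor per library. Differences are in log2(normalized reads + 1), Tg197 or TNF-treated minus WT, from limma, and a region passed at an adjusted p under 0.05 over all regions of its table. Regions were listed for a window within them that the authors had found different, so these tests largely repeat a selection, though a region as a whole can differ little. Tables were normalized separately, and levels are compared only within a table.

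Across the 4 comparisons 25 of the 30 regions passed, 11 of them higher and 14 lower in the Tg197 or TNF-treated cells. The tables as deposited list 15 as higher and 15 as lower. Group means ran from 4.2 to 172 normalized reads, and single libraries held between 2 and 189 reads in a region, so many of these values rest on few reads. In 26 regions the libraries of the 2 groups did not overlap. Reads within all listed regions ranged over libraries from 385155 to 2875554, lowest at 11 weeks and highest at 3 weeks. Libraries 1 and 2 of the TNF-treated group held the same value at each of 16898 regions and were counted as 1 sample, leaving n = 2 against 3.

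At 3 weeks, all 5 listed regions of Bcl11b, Pax5 and Ebf1 passed, 4 higher and 1 lower in Tg197, where 85% of all listed regions passed, 40.3% as higher and 44.7% as lower. At 8 weeks, 7 of the 10 regions in 7 genes passed, 2 higher and 5 lower, against 54% of all regions, 17.4% higher and 36.6% lower. The 11-week table had 7 regions in 3 genes, of which 5 passed, 3 higher and 2 lower, against 77.9% of all regions, 49.7% higher and 28.2% lower. After TNF treatment all 8 regions in 5 genes passed, 2 higher and 6 lower, against 93.8% of all regions, 29.8% higher and 64.1% lower. Groups that did not overlap were found at 5 of 5, 8 of 10, 5 of 7 and 8 of 8 regions in that order, against 86.1%, 69.6%, 83.7% and 95.8% of all regions. Each table holds between 5 and 10 member regions, too few for these shares to be read, and nothing about the 8 genes is taken from them. Calls at 8 and 11 weeks hung on single libraries: no member passed at 8 weeks when Tg197 library 1, Tg197 library 3, WT library 1 or WT library 2 was left out (limma adjusted p from 0.0726 to 0.14 for the 7 regions) or at 11 weeks when Tg197 library 1, Tg197 library 3 or WT library 2 was left out (from 0.0531 to 0.0564 for the 5), while every direction was kept. This was so for the whole tables: 0 of 11975 regions passed under each of these 4 fits at 8 weeks, and 10, 0 and 0 of 7309 under those 3 at 11 weeks. With a pseudocount of 0.1 none passed at 8 weeks, and with the adjustment widened to all windows that the authors' p-values imply none passed in any table, where limma gave 5, 7, 6 and 8 members an unadjusted p under 0.05 in the order above.

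The median log2 difference of the members was 0.72 at 3 weeks, -1.14 at 8 weeks, 0.88 at 11 weeks and -1.06 after TNF. Over all listed regions the medians were -0.12, -0.22, 0.76 and -1.08. The median levels of the members were 57.9, 24.4, 29.2 and 35.0 normalized reads in the same order. Over all listed regions they were 161, 42.6, 35.3 and 23.8. Among all listed regions in the level bin that begins at a log2 mean of 4.0, most were higher at 3 and 11 weeks. In that bin most were lower at 8 weeks and after TNF. The fullest steps of difference began at 1.0, -1.5, 1.25 and -1.5 in the same order, with 693, 332, 367 and 781 regions. The part of level in the members' differences was not tested. When libraries were scaled to 1 median over the listed regions, the median of all regions moved by 0.26 at 3 weeks, 0.03 at 8 weeks, -0.33 at 11 weeks and 0.87 after TNF. The share of passing regions that were higher then became 84.9% in place of 47.4% at 3 weeks, 30.0% in place of 32.3% at 8 weeks, 43.1% in place of 63.8% at 11 weeks and 81.0% in place of 31.7% after TNF. Under that scaling 4 members passed as higher and 0 as lower at 3 weeks, 1 and 5 at 8 weeks, 1 and 2 at 11 weeks, and 2 and 0 after TNF. Of the 30 directions it turned 2, both at Bcl11b and both to 0.03, where neither passed.

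**Figure D1:**
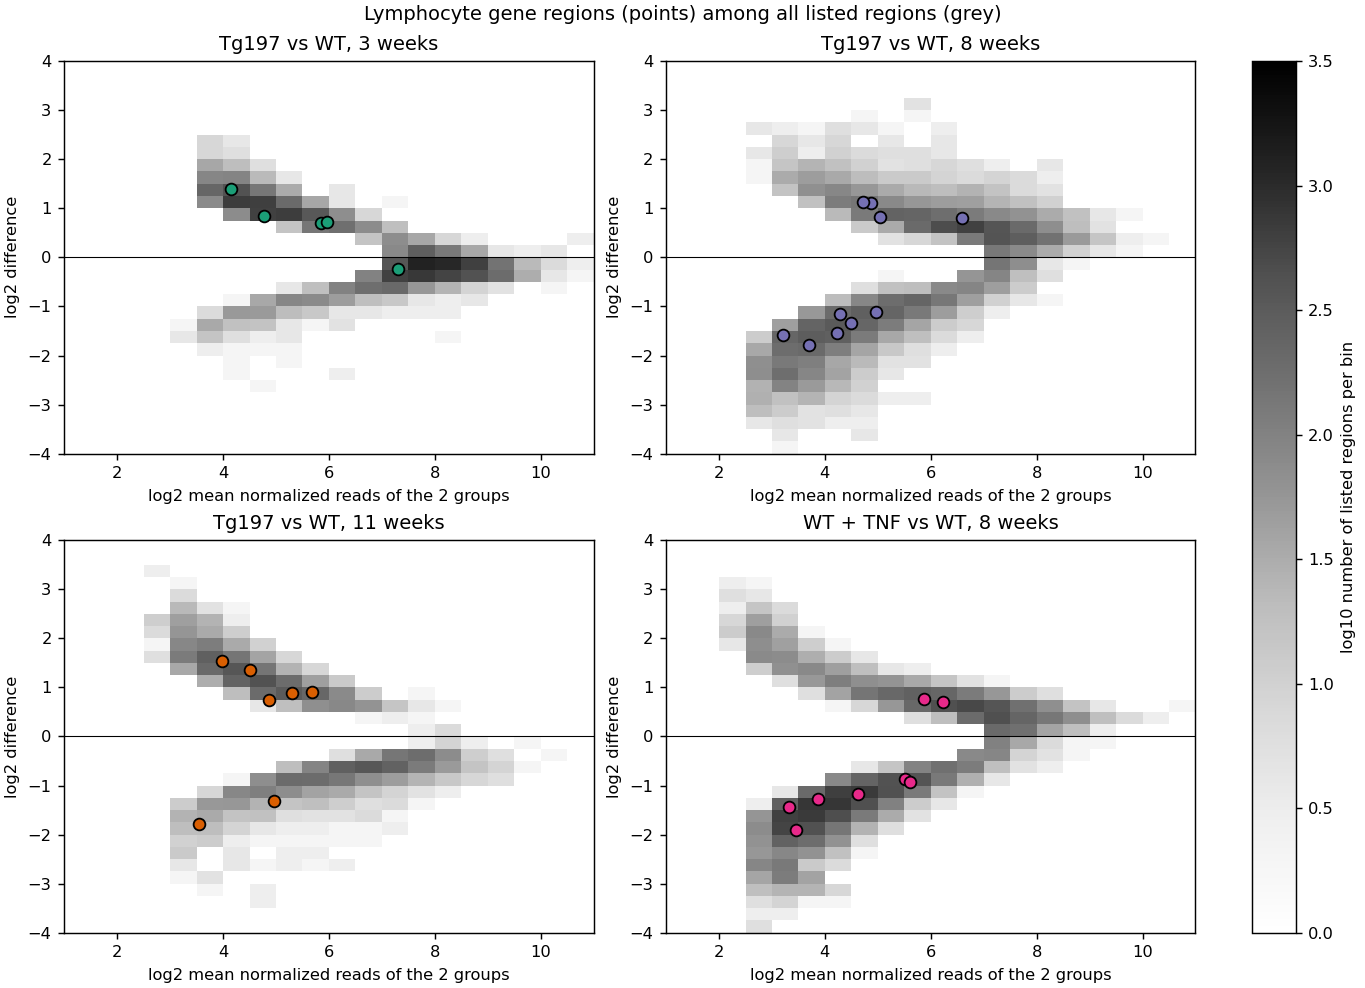
Each panel plots, for 1 comparison, the log2 difference of a region (y axis) against the log2 of its mean normalized reads over the 2 groups (x axis), with all listed regions as grey bins (darker for more regions) and the 30 lymphocyte gene regions as points. The points lie within the grey arms, and outside the 3-week panel few regions of either kind lie near 0.

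Bcl11b, on chromosome 12 and the minus strand, is 93.0 kb long and had 6 listed regions in the 4 tables, all in the gene body. Of these, 1 passed as higher, 3 as lower and 2 did not pass. The group with a directly shared stretch lies about 25 kb after the start. At 8 weeks the region chr12:109216051-109216650 held 3.98, 7.61 and 4.41 normalized reads in Tg197 and 24.5, 24.7 and 13.3 in WT. Every Tg197 library was thus below every WT library, with means of 5.33 ± 1.98 (SD, n = 3) and 20.8 ± 6.56 (SD, n = 3). The difference was -1.78 (SE 0.45, limma adjusted p = 0.0428), and between -1.63 and -1.69 when any 1 of the 4 libraries named above for 8 weeks was left out, where it did not pass.

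At 11 weeks the listed region was chr12:109215901-109216850, which contains the 8-week region whole, an overlap of 600 bp. Tg197 libraries held 64.6, 63.0 and 75.01 normalized reads there and WT libraries 32.6, 34.4 and 40.0. The order was the opposite of that at 8 weeks, again with no overlap of groups: 67.5 ± 6.52 (SD, n = 3) against 35.7 ± 3.81 (SD, n = 3). The difference was 0.90 (SE 0.22, limma adjusted p = 0.0219), and 0.58 with an adjusted p of 0.0537 under the scaling to 1 median. The change of direction between ages was not tested, since the tables were normalized separately, and the longer 11-week region holds more reads by its length.

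The 3-week table lists chr12:109217701-109218200, which lies 850 bp from the 11-week region. It held 152, 134 and 153 normalized reads in Tg197 and 172, 171 and 173 in WT. The SD of the WT libraries was 0.825. The difference was small, -0.23 (SE 0.09, limma adjusted p = 0.0201), and 0.03 after scaling to 1 median, which turns its direction. Without Tg197 library 2, the lowest, it was -0.17 with an adjusted p of 0.104. In the authors' deposited table its p-value was 1.06e-11, while an exact binomial test of the reads recovered from the values (438 in Tg197, 524 in WT) gave 0.013. Only 2 of the 30 regions had a deposited p-value over 10 times smaller than the binomial one. At most of the 30 the deposited p-value was the larger.

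The other 3 Bcl11b regions lay further into the gene. At 8 weeks chr12:109166751-109167400 held 45.1, 16.6 and 63.3 normalized reads in Tg197 and 23.7, 12.0 and 15.5 in WT, so the groups overlapped, with a difference of 1.10 (limma adjusted p = 0.101). At 11 weeks chr12:109204351-109204850 held 27.1, 12.6 and 81.0 in Tg197 and 23.1, 15.8 and 15.6 in WT (0.74, adjusted p = 0.227). In both regions the Tg197 library 2 of that age lay at or below the WT level. Without it the differences were 1.64 (limma adjusted p = 0.0194) and 1.35 (0.0424). After TNF, chr12:109156701-109157300 held 21.9 and 44.6 normalized reads against 62.5, 56.4 and 54.1 in WT, a difference of -0.86 (SE 0.29, limma adjusted p = 0.0172) that was 0.03 after scaling to 1 median. Without TNF-treated library 1 (and its copy) it was -0.36 with an adjusted p of 0.179.

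**Figure D2:**
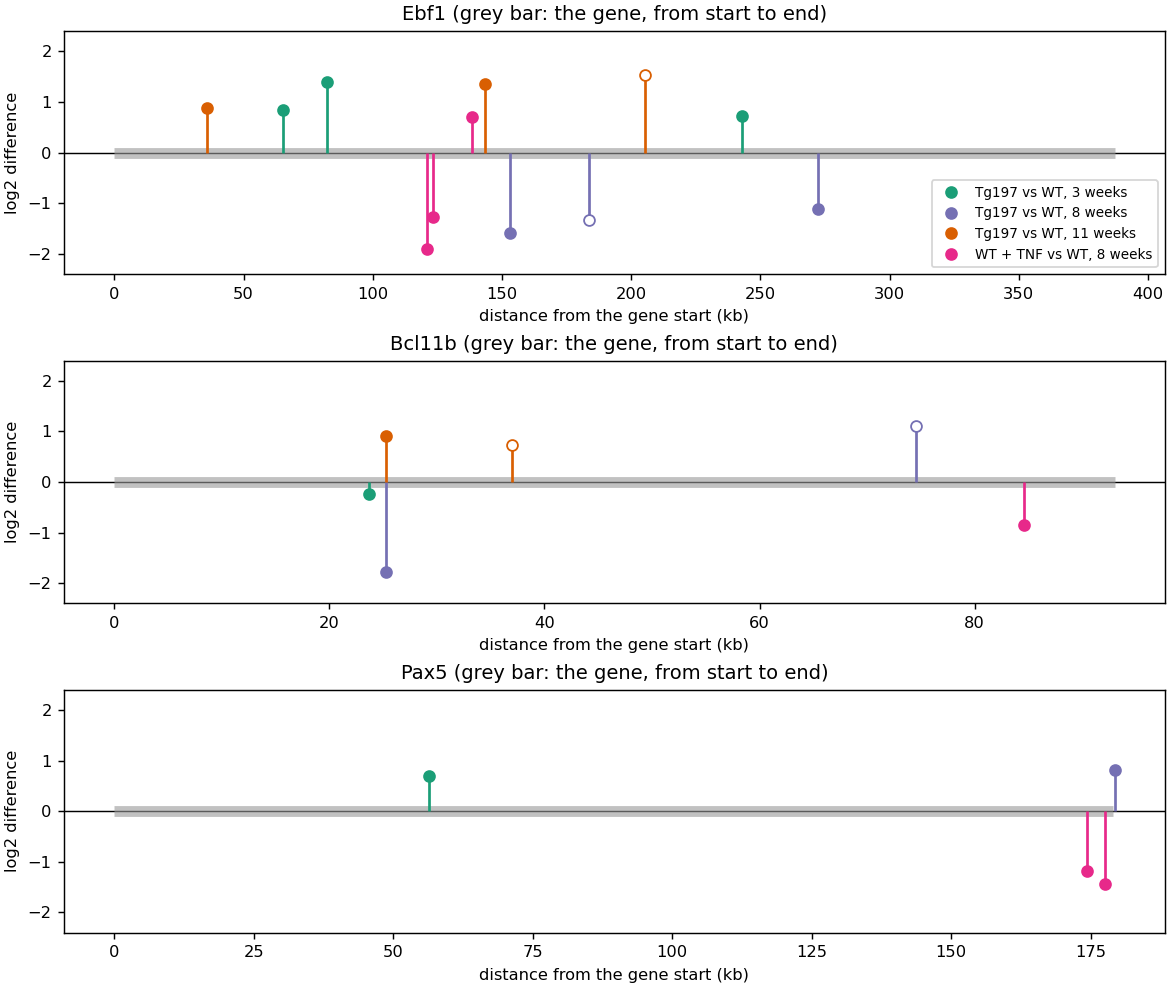
Log2 difference of each listed region (y axis) by the distance of its midpoint from the gene start in kb (x axis) along Ebf1, Bcl11b and Pax5, with the comparison as colour and regions that did not pass as open points. Near 25 kb in Bcl11b the 8-week point is at -1.78, the 11-week point at 0.90 and the 3-week point at -0.23. The TNF point, at -0.86, lies near the far end of the gene. The 3-week and TNF points were at 0.03 each under the scaling to 1 median and did not pass. In Ebf1 the 3- and 11-week points are above 0 and the 8-week points below. These were also the more common directions among all listed regions at such levels at those ages.

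Cd3e, on chromosome 9 and the minus strand, was listed at 11 weeks only, with a pair of regions close to its start, both lower in Tg197. The region chr9:44816451-44817400 begins 272 bp after the start and is classed as promoter. Its Tg197 libraries held 27.1, 16.0 and 11.2 normalized reads and its WT libraries 36.7, 48.4 and 47.8. No Tg197 library reached the WT level, and the means were 18.1 ± 8.16 (SD, n = 3) and 44.3 ± 6.57 (SD, n = 3). The difference was -1.32 (SE 0.34, limma adjusted p = 0.0219).

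The other Cd3e region, chr9:44815301-44815800, lies 650 bp further into the gene and is also in a promoter class. It held 5.58, 2.29 and 6.90 normalized reads in Tg197 and 23.1, 15.8 and 16.6 in WT, so that the highest Tg197 library was below the lowest WT library. The difference was -1.79 (SE 0.47, limma adjusted p = 0.0219). Both regions stayed lower and passed under the scaling to 1 median, at -1.64 and -2.09, each with an adjusted p of 0.0147. Without Tg197 library 3 they were at -1.04 and -2.05 and did not pass (limma adjusted p = 0.0531 for each). Of the 4 other regions listed within 100 kb at 11 weeks, an intergenic one 5.72 kb beyond the gene's end was lower too (-1.91), and the 3 others had positive differences. Among these, Amica1 passed, at 1.07. The 250 upstream bases printed above end at the start and are not part of a listed region.

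Cd4, on chromosome 6 and the minus strand, passed as lower at a different place in each of 2 tables. At 8 weeks the region chr6:124815801-124816500, near the end of the gene, held 10.6, 9.69 and 14.7 normalized reads in Tg197 and 33.8, 22.5 and 25.4 in WT. The groups did not overlap, and the difference was -1.16 (SE 0.35, limma adjusted p = 0.0428). After TNF the listed region was chr6:124836401-124836900, centred 1575.5 bp after the start, in a promoter class. TNF-treated libraries held 37.8 and 27.3 normalized reads and WT libraries 71.1, 86.1 and 39.3. The lowest WT library lay just above the higher TNF-treated one. The difference was -0.93 (SE 0.32, limma adjusted p = 0.0183), but -0.05 (adjusted p = 0.903) after scaling to 1 median, and -0.70 without WT library 2 (adjusted p = 0.0675) or without TNF-treated library 3 (adjusted p = 0.128).

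Around Cd4, all 7 other regions listed within 100 kb in the TNF table were lower and passed. Over all levels, 64.1% of that table's regions passed as lower. The 7 included Lag3, an inhibitory receptor related to Cd4, at 11.9 ± 4.19 (SD, n = 2) against 25.8 ± 3.14 (SD, n = 3) and a log2 difference of -1.09 (-0.23 after scaling to 1 median, where it did not pass), and Gnb3 at -2.93. Apart from Usp5 (60.4 against 99.5), their WT means were 30.6 normalized reads or less. Most listed regions of that table at such low levels were lower, so 64.1% is not the share to set beside them. The part of level was not tested.

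**Figure D3:**
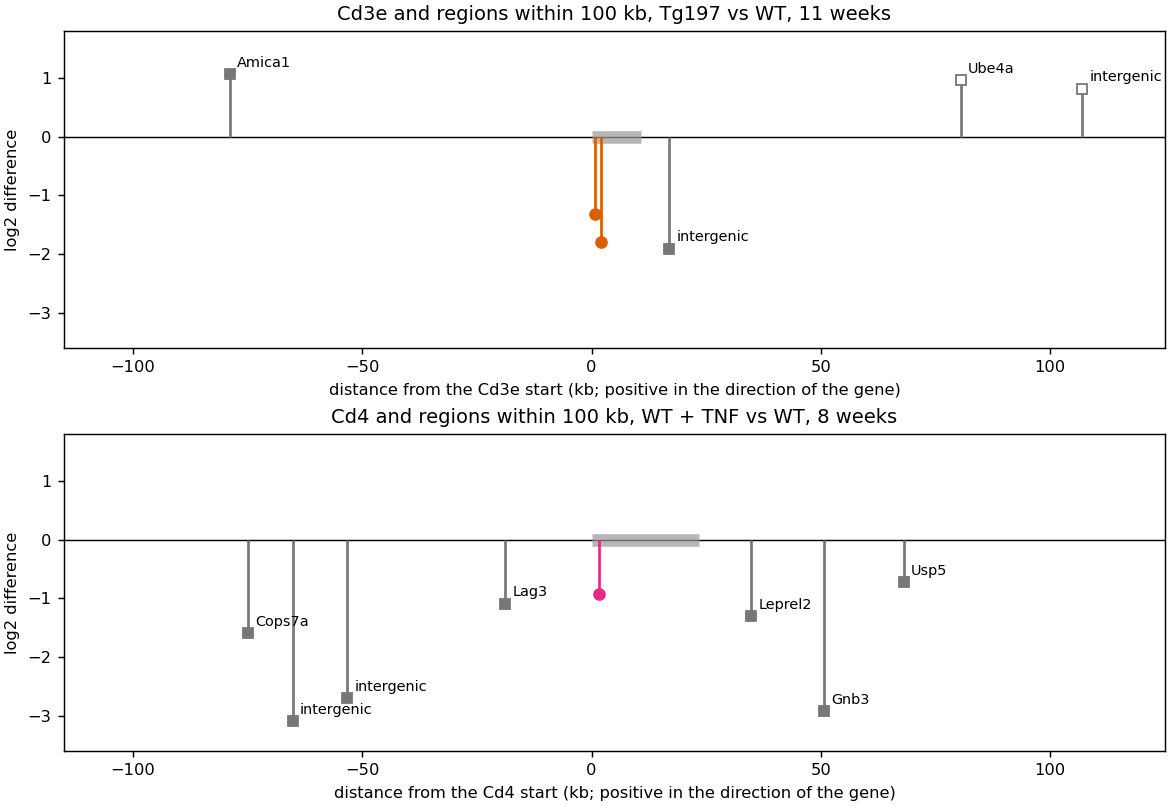
Log2 difference (y axis) of regions listed within 100 kb of Cd3e at 11 weeks and of Cd4 after TNF, by distance from the gene's start in kb (x axis), with the gene as a grey bar, its own regions as coloured points and others as grey squares (open where not passed). The Cd3e regions and the intergenic region just beyond the gene are below 0 between regions above 0. All points around Cd4 are below 0, as were most listed regions of low level in that comparison. The Cd4 point, at -0.93, was at -0.05 after scaling to 1 median.

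Cd28, on chromosome 1, gave the one stretch that passed in the same direction in both 8-week tables. At 8 weeks chr1:60819451-60820000 held 160.4, 98.3 and 113 normalized reads in Tg197 and 58.3, 69.7 and 81.8 in WT. All Tg197 libraries were above all WT libraries, a difference of 0.80 (SE 0.24, limma adjusted p = 0.0428). After TNF chr1:60819451-60819950 held 73.7 and 73.2 normalized reads against 39.4, 39.6 and 50.4 in WT, with no overlap and a difference of 0.76 (SE 0.20, limma adjusted p = 0.0109). The TNF region lies whole within the other, an overlap of 500 bp in the gene body. The 2 comparisons share their WT libraries, so they are not independent of each other. Scaled to 1 median, the differences were 0.83 and 1.65, and both passed (adjusted p = 0.0423 and 0.00149).

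Pax5, on chromosome 4 and the minus strand, is 179 kb long and had 4 regions, of which 2 passed as higher and 2 as lower. At 3 weeks chr4:44666701-44667200, in the gene body, held 85.3, 62.2 and 68.3 normalized reads in Tg197 and 47.0, 37.1 and 47.7 in WT. The groups did not overlap, and the difference of 0.70 (SE 0.18, limma adjusted p = 0.00281) was 0.95 after scaling to 1 median. It passed with any library left out.

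The other Pax5 regions lay at the far end of the gene. At 8 weeks chr4:44543751-44544300 held 50.4, 41.5 and 35.3 normalized reads in Tg197 and 20.3, 22.5 and 27.6 in WT. Its difference was 0.82 (SE 0.28, limma adjusted p = 0.0453), and 0.85 with an adjusted p of 0.06 after scaling to 1 median. It lies just beyond the annotated end, 77 bp from it at its near edge, though it was classed as gene body. After TNF chr4:44545551-44546050, only 1250 bp away, held 2.99 and 7.44 normalized reads against 18.0, 14.5 and 12.3 in WT (-1.44, SE 0.49, limma adjusted p = 0.0174). Without TNF-treated library 1 and its copy this was -0.90 and did not pass (adjusted p = 0.101).

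A further TNF region, chr4:44548551-44549450, held 16.9 and 12.4 normalized reads against 34.3, 38.1 and 30.7 in WT (-1.18, SE 0.30, limma adjusted p = 0.0109). In each of these the treated libraries were all on one side of WT. The 8-week and TNF regions do not overlap, so their opposite directions are not at the same bases. After scaling to 1 median both TNF differences stayed negative but did not pass (-0.64 with an adjusted p of 0.26, and -0.32 with 0.349). The region chr4:44545551-44546050 has a p-value of 1.24e-05 in the authors' deposited table, where an exact binomial test of its reads gave 0.000917. That test took 9 reads in the TNF-treated libraries, with the identical ones counted as 1, and 50 in WT. The deposited log2 fold change of -1.74 counts all 3 treated libraries, so the 2 p-values may not rest on the same libraries. This region is the other of the 2, out of 30, with a deposited p-value over 10 times smaller.

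Ebf1, on chromosome 11 and the plus strand, is the longest of the 8 genes, at 387 kb, and had the most regions: 12, with 3 in each table, none overlapping another. All were in the gene body. Of the 12, 6 passed as higher, 4 as lower and 2 did not pass. At 3 weeks all 3 passed as higher in Tg197, with differences of 0.84, 1.40 and 0.72. The largest was at chr11:44513501-44514000, where Tg197 libraries held 27.0, 17.9 and 34.6 normalized reads and WT libraries 10.3, 9.05 and 7.95. The groups did not overlap, and the limma adjusted p was 0.00215 (SE 0.31).

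At 8 weeks all 3 Ebf1 differences were negative and 2 passed. The region chr11:44584651-44585150 held 2.65, 5.54 and 4.41 normalized reads in Tg197 and 13.5, 17.2 and 12.2 in WT, with no overlap (-1.58, SE 0.43, limma adjusted p = 0.0428). The region chr11:44703601-44704100 was at 20.3 ± 9.01 (SD, n = 3) against 42.4 ± 4.48 (SD, n = 3), a difference of -1.12 (adjusted p = 0.0478). The third, chr11:44615001-44615600, was at -1.33 (adjusted p = 0.0855). There WT library 3, at 11.1, lay within the Tg197 range of 7.95 to 15.2, while the other WT libraries held 49.9 and 41.2. Without that library the difference was -1.97 and passed (limma adjusted p = 0.0326).

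At 11 weeks all 3 Ebf1 differences were positive and 2 passed. The region chr11:44466901-44467800 held 59.0, 45.8 and 49.1 normalized reads in Tg197 and 23.1, 27.9 and 31.2 in WT, with no overlap (0.88, SE 0.25, limma adjusted p = 0.0219). Scaled to 1 median it was 0.56 and did not pass (adjusted p = 0.0793). The region chr11:44574801-44575500 was at 33.8 ± 15.4 (SD, n = 3) against 12.0 ± 3.07 (SD, n = 3), a difference of 1.35 with the same adjusted p. At chr11:44636551-44637050 the groups overlapped, with 11.2, 12.6 and 50 in Tg197 and 2.72, 11.2 and 6.82 in WT (1.53, adjusted p = 0.0529). The highest value there came from Tg197 library 3. The part of level in the directions of Ebf1 at each age was not tested.

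After TNF, 2 Ebf1 regions that lie 1850 bp apart were lower and 1 was higher. The region chr11:44552351-44552950 held 5.97 and 2.48 normalized reads against 16.3, 23.6 and 13.5 in WT (-1.90, SE 0.49, limma adjusted p = 0.0109). Its neighbour chr11:44554801-44555300 was at 8.2 ± 1.07 (SD, n = 2) against 21.2 ± 1.87 (SD, n = 3), a difference of -1.27 (adjusted p = 0.0111). The region chr11:44569951-44570450 was higher, with 92.6 and 94.2 against 51.4, 59.4 and 60.2 (0.71, SE 0.17, limma adjusted p = 0.0109). The groups did not overlap in any of the 3. After scaling to 1 median the higher region was at 1.60 and passed, and the lower ones at -1.12 and -0.44 did not (adjusted p = 0.0533 and 0.29).

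The Ikaros family genes, both on chromosome 11, were listed at 8 weeks only. Ikzf3 fell at chr11:98331101-98331600, near the end of the gene, with 7.95, 14.5 and 5.88 normalized reads in Tg197 and 29.6, 33.0 and 22.1 in WT. The groups did not overlap, and the difference was -1.55 (SE 0.43, limma adjusted p = 0.0428). Ikzf1 at chr11:11652051-11652550 held 63.6, 27.7 and 20.6 in Tg197 and 19.5, 16.5 and 9.95 in WT. The groups did not overlap, but Tg197 library 1 stood far above the other 2, and the difference of 1.12 did not pass (SE 0.49, limma adjusted p = 0.0797). Neither annotated Ikzf1 start has a listed region at it.

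**Figure D4:**
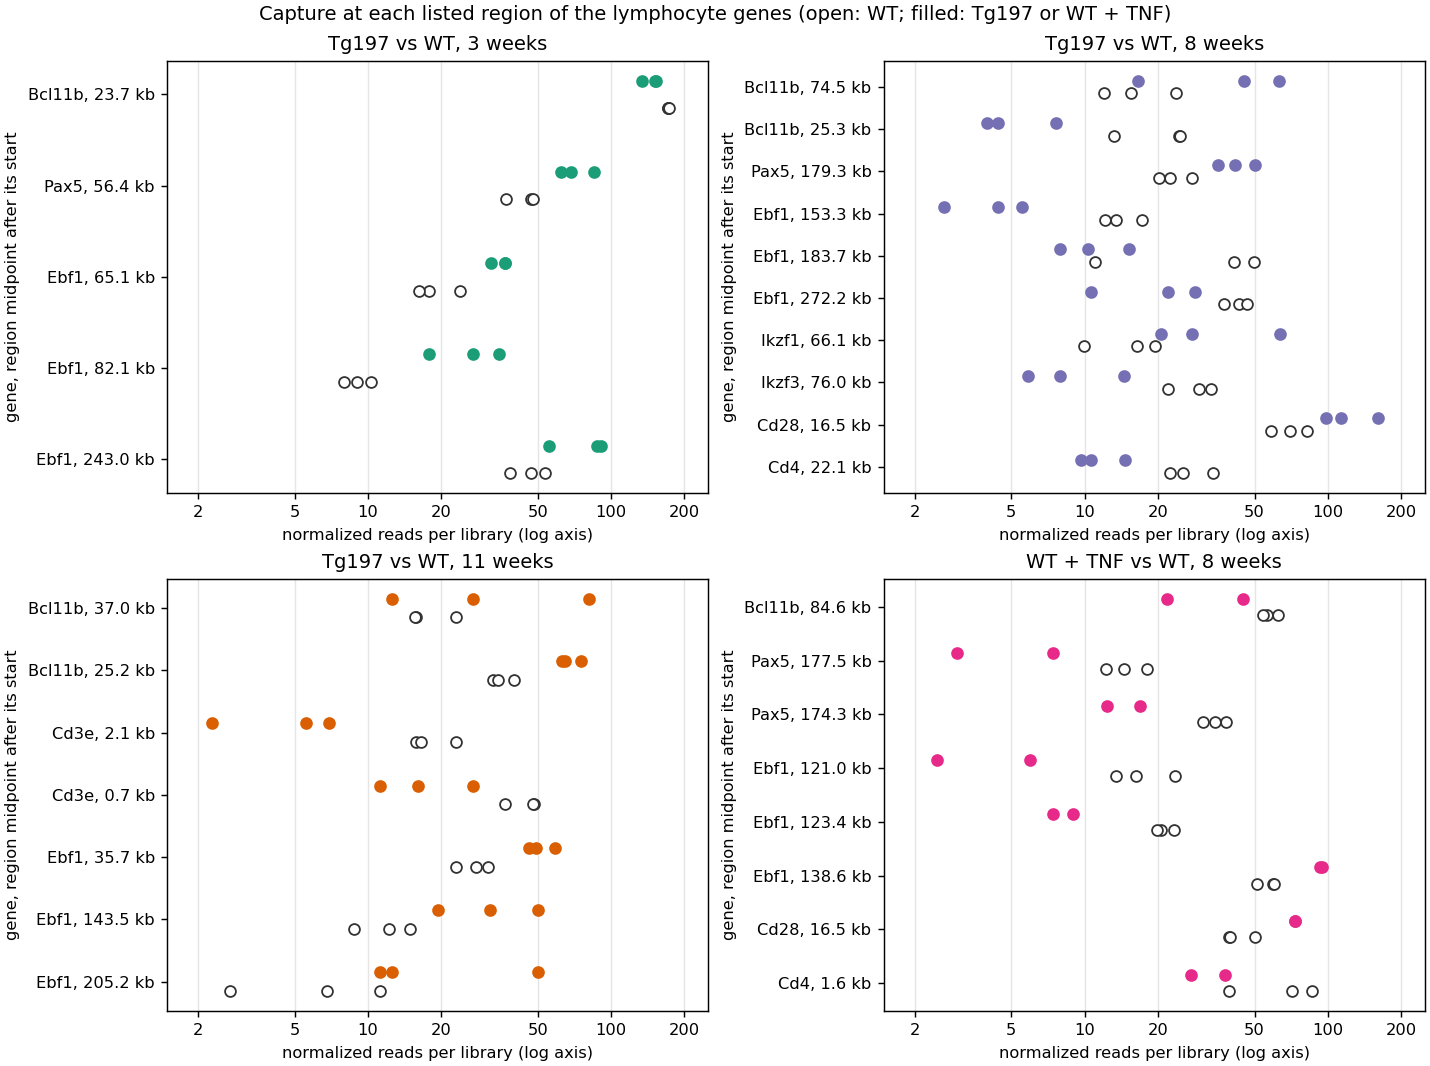
Normalized reads of each library (x axis, log scale) at each of the 30 regions, named by gene and by the distance of the region's midpoint from the gene's start in kb, with WT libraries as open circles and Tg197 or TNF-treated libraries as filled circles. Identical TNF-treated libraries are drawn once. The groups are separate in 26 rows and overlap at both Bcl11b rows with midpoints at 74.5 kb (8 weeks) and 37.0 kb (11 weeks) and at Ebf1 rows of 8 and 11 weeks.

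**Figure D5:**
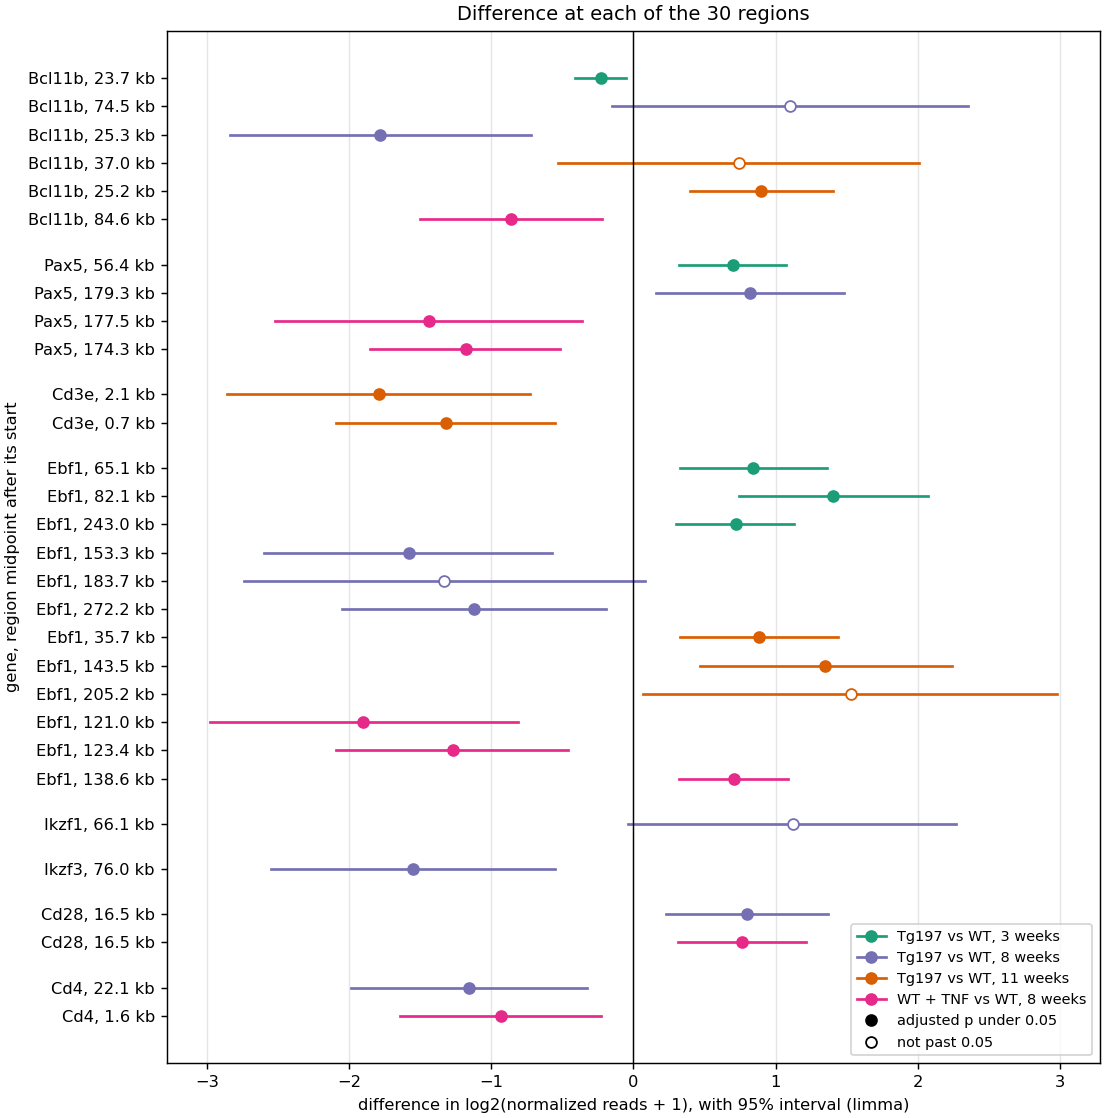
Difference in log2(normalized reads + 1) with its 95% interval from limma (x axis) for the 30 regions by gene, with the comparison as colour and filled points for an adjusted p under 0.05. The intervals of 25 filled points lie clear of 0, from -1.90 at Ebf1 to 1.40 at Ebf1. The Bcl11b points at -0.23 and -0.86 were at 0.03 each under the scaling to 1 median and did not pass.

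The 2 genes listed in all 4 tables can be described by their mean log2 difference in each. For Bcl11b these were -0.23, -0.34, 0.82 and -0.86 in the order 3, 8 and 11 weeks and TNF, where the first and the last are the values that turn under the scaling to 1 median. For Ebf1 they were 0.99, -1.34, 1.25 and -0.82. Among 601 genes listed in all 4 tables, the nearest to Bcl11b by Euclidean distance of these 4 means were Cat (distance 0.08), Tiam1 (0.30) and Pmepa1 (0.33). Nearest to Ebf1 were Lifr, Plekha5 and Ttc39c, each at 0.41. The tables hold only regions selected for a difference, and the 8-week tables share WT libraries, so these distances describe the lists and carry no test.

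Other lymphocyte genes from 9 lists, 141 genes in all, were read in the same way. Of them 69 were listed, with 210 regions, 193 of them in gene bodies. At 3 weeks 19 of 44 regions passed as higher and 16 as lower (median -0.08), and at 11 weeks 18 of 36 as higher and 9 as lower (median 0.80). At 8 weeks 9 of 57 passed as higher and 29 as lower, with a median of -1.28 where that of all listed regions was -0.22. The median level of these 57 regions was 19.7 normalized reads against 42.6 over all regions. The part of level in the difference was not tested. After TNF 13 of 73 passed as higher and 58 as lower (median -1.22). As for the members, the shares are to be read against the background of each table. Genes named from these lists passed at the authors' scaling. After scaling to 1 median 6 of the 14 named calls after TNF did not pass (Fyn, Fyb, Lag3, Pax2, Il21r and Fasl, all still negative). Nor did Il21r at 8 weeks, Cd247 at 11 weeks and Ccr7 at 3 weeks, where Ccr7 turned to 0.05. With a pseudocount of 0.1 none of the 12 named at 8 weeks passed.

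Paralogs of the members, 8 of 9 genes listed with 23 regions, moved in different directions. Ebf2 was higher in Tg197 at 3 weeks (1.13, 24.4 ± 1.67 against 10.7 ± 2.14, SD, n = 3 each), lower at 8 weeks (-2.15, 3.83 ± 3.58 against 19.6 ± 11.5) and higher at 11 weeks (2.69, 16.5 ± 4.69 against 2.43 ± 2.76). These Ebf2 regions are different stretches of the gene, and at 8 weeks its groups overlapped. The 11-week Ebf2 region rests on 56 reads in Tg197 against 6 in WT. The part of level in the Ebf2 directions was not tested. Bcl11a was higher at 3 weeks (0.97) and Ebf3 lower at 11 weeks (-0.96). Pax2 was lower at 8 weeks (-1.85) and after TNF (-1.29), at different stretches. Ebf4 was lower after TNF (-2.18, on 8 reads in the treated libraries against 81 in WT).

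Among lymphoid transcription factors, with 86 regions the largest list, Runx1 had a region lower at 8 weeks (-2.14, 3.68 ± 2.87 against 18.0 ± 6.19, n = 3 each) within 3 kb of its start, another higher at 11 weeks (1.81) and one more lower after TNF (0.5 ± 0.707 with n = 2 against 12.7 ± 0.844 with n = 3). The last rests on 1 read in the treated libraries against 42 in WT. Zbtb16, the factor of innate-like T cells, was lower at 8 weeks (-2.57) and higher at 11 weeks (1.81) at different stretches. At 8 weeks its Tg197 library 1 held 0.0 normalized reads (SE of the difference 0.88). The 11-week Zbtb16 region rests on 48 reads in Tg197 against 11 in WT. Rora was lower after TNF (-2.76), again on few reads, 4 in the treated libraries against 50 in WT. Bach2 (1.36) and Pou2f2 (1.09) were higher at 3 weeks.

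T-cell receptor signalling genes had 63 regions in 18 of 25 genes. Nfatc2, the calcium-regulated factor of activated T cells, was higher at 3 weeks (1.68), lower at 8 weeks (-1.97) and higher at 11 weeks (1.51). These Nfatc2 regions are different stretches of the gene, and the part of level in their directions was not tested. Rasgrp1 was lower at 3 weeks (-1.32) and Ptpn22 at 8 weeks (-1.73), and Txk was higher at 11 weeks (1.23). After TNF Fyn (-2.52) and Fyb (-2.09) were lower, on 4 and 7 reads in the treated libraries against 40 and 59 in WT. Of the receptor chains and co-receptors, 5 of 10 genes were listed. Cd6 had a region higher at 3 weeks (0.69) and another lower at 8 weeks (-1.77), and Cd7 was lower at 8 weeks (-1.51). At 3 weeks 1 of the 3 regions on this list passed as higher and 1 as lower, both in Cd6. Cd247 was higher at 11 weeks (0.84) and after TNF (0.66), and Cd8a higher after TNF (0.57). Cd6 and Cd247 were each read at different stretches.

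In the B-cell receptor list, Ptpn6 was higher at 3 weeks (1.08) and lower after TNF (-2.0), at different stretches. The latter rests on 6 reads in the treated libraries against 57 in WT. Lyn was lower at 8 weeks (-1.52), Bank1 higher at 11 weeks (1.22) and Cr2, a complement receptor, higher after TNF (1.70). The Cr2 region rests on 24 reads in the treated libraries against 12 in WT. The inhibitory receptor Havcr2 (1.21) and Cd96 (0.93) were higher at 3 weeks. Among cytokine and homing receptors, S1pr1 (-1.21) and Ccr7 (-0.21, and 0.05 after scaling to 1 median) were lower at 3 weeks. Cxcr4 (-1.46) was lower at 8 weeks, and Cxcr5 was higher after TNF (1.14). Il21r was lower at 8 weeks (-1.08) and after TNF (-1.47), at different stretches. Of the recombination genes, Rag1 was lower at 3 weeks (-0.48) and Dntt at 8 weeks (-1.11). Of the cytotoxic effectors Fasl was lower after TNF (-1.74), on 6 reads in the treated libraries against 44 in WT.

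Lists of other cell types had few listed regions: 10 for macrophage markers, 9 for synovial fibroblast markers and 33 for endothelial markers. In the order 3, 8 and 11 weeks and TNF, 85%, 54%, 77.9% and 93.8% of all listed regions passed. Of the macrophage regions 6 of 6, 1 of 1, 1 of 1 and 2 of 2 passed, of which 4, 0, 1 and 0 were higher. Of the fibroblast regions 3 of 4, 1 of 1, 0 of 1 and 3 of 3 passed, with 2, 0, 0 and 1 higher. Of the endothelial regions 8 of 11, 2 of 3, 5 of 7 and 12 of 12 passed, with 3, 1, 5 and 4 higher. Their part in the members' differences was not tested.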

How the data were processed

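MethylCap-seq libraries of mouse synovial fibroblasts were analysed from 4 tables of regions, each comparing 2 groups. Per the labels' protocols, DNA was sonicated to 250 bp on average and read as pairs of 100 bp. The submitters' processing notes name BWA, TopHat, TopHat2, Cufflinks, Cuffdiff and build mm9, with no role. Per the file headers, the signal per library was normalized by the authors, and each region carries a log2 fold change and a p-value computed by the authors. No listed region has a deposited window p-value above 0.0001. Regions not listed were not analysed here. All value columns were used (0 left out). Values are whole reads, within 0.1, divided by a size factor. The order of values in a cell carries no replicate number, so libraries are named by position. Depth outside listed regions is unknown.

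From the deposited values limma 3.58.1 (R 4.3.3) was fitted, with its mean trend, to all regions of a table as log2(value + 1), with Benjamini-Hochberg adjustment and a threshold of 0.05, and was tested on simulated data. The added 1 understates changes at low values. Reads were also compared by an exact two-sided binomial test, which covers counting error only. Members and lists were chosen with earlier results of these data known. All members are named with all regions. From each other lymphocyte list, up to 2 genes per table are named, those past the threshold, averaging 10 or more in whichever group was higher, with the largest absolute difference. The value given for such a gene is that of its region with the largest absolute difference among those. For members in all tables the 3 most alike genes are named. Alternatives were pseudocounts of 0.1 and 5, a minimum mean of 10, scaling to 1 median, no trend, adjustment over all windows, a minimum log2 difference of 1, each library left out, and the identical libraries counted as separate ones, 3 in all. Fits with limma voom on recovered reads were added after seeing the data.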

Additional observations from a re-analysis of the deposited data

Results flagged for a closer look

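The overlapping Bcl11b regions, chr12:109216051-109216650 and chr12:109215901-109216850 on build mm9, are singled out because the groups were separate at both ages, in opposite directions. Separate groups were found at 69.6% of all listed regions at 8 weeks and at 83.7% at 11 weeks. At 8 weeks all 3 Tg197 libraries were below all 3 WT libraries, with a log2 difference of -1.78 (adjusted p = 0.0428 by limma). This region no longer passed with a pseudocount of 0.1 (0.0519). Dropping certain single libraries had the same effect, with adjusted p between 0.0726 and 0.134, though the difference stayed negative. At 11 weeks all 3 Tg197 libraries were above all 3 WT libraries, with a log2 difference of 0.90 (adjusted p = 0.0219 by limma). After scaling to 1 median it shrank to 0.58 and did not pass (0.0537). It also failed to pass on dropping certain single libraries, with adjusted p between 0.0531 and 0.0539, and stayed positive throughout. The difference between the ages was not tested, because the tables were normalized separately.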

How the results depend on the processing

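With each library left out in turn, between 4 and 5 members passed at 3 weeks, between 0 and 7 at 8 weeks, between 0 and 6 at 11 weeks and between 6 and 8 after TNF. The count of 0 at 8 weeks arose on leaving out Tg197 library 1, Tg197 library 3, WT library 1 or WT library 2, where limma gave 6, 8, 3 and 5 members an unadjusted p under 0.05, and 0 of all 11975 regions passed in each. At 11 weeks it arose on leaving out Tg197 library 1, Tg197 library 3 or WT library 2, with 6, 5 and 6, where 10, 0 and 0 of all 7309 regions passed. With a pseudocount of 0.1, 0 members passed at 8 weeks (7 unadjusted), as did 0 of all 11975 regions of that table. Adjusted over all windows (902200, 761324, 748969 and 816884 implied), limma passed 0 members in each table, with 5, 7, 6 and 8 at an unadjusted p under 0.05. With limma voom the counts were 5, 7, 5 and 8. A minimum log2 difference of 1 left 1 member at 3 weeks, 3 at 11 weeks and 4 after TNF. Scaling to 1 median left 3 at 11 weeks and 2 after TNF, and turned the Bcl11b differences at 3 weeks and after TNF to 0.03 each and that of Ccr7 to 0.05. The cause was not tested. Over all alternatives, 307 member values kept direction and side of the threshold, 108 lost it, 3 gained it and 2 turned. For the named list genes these were 482, 175 and 1 turned. No paired analysis was possible because the values of a group carry no replicate numbers. A planned count model on recovered reads was not run. Few reads per region limit the size of difference that these libraries can show.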
